A study of Drosophila melanogaster with 2 samples.

Results

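The proteasome is the barrel-shaped protease that degrades ubiquitin-tagged proteins in every cell. Its genes were examined here for occupancy by castor (cas), a zinc-finger transcription factor known for the late steps of the temporal series of embryonic neuroblasts. The members were the protein-coding genes of the Drosophila melanogaster annotation whose symbols start with Prosalpha, Prosbeta, Rpn or Rpt, which gave 48 of 13968 protein-coding genes on the chromosome arms. Chromatin came from whole embryos of the strain cas-GFP collected from 0 to 24 hours, in which cas carries an enhanced green fluorescent protein tag, and it was sheared to 200 to 800 bp and precipitated with an antibody against that tag. There was 1 group with 2 biological replicates, so no contrast between conditions exists. Every tissue and stage of the collection is averaged in each peak, so fewer occupied cells and weaker occupancy per cell cannot be told apart. The labels call the flies transgenic and name cas as the target of the insertion, and they do not state further whether the tag sits in the native gene or in an added copy.

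At the centre of the proteasome, the core particle is a stack of rings built from alpha and beta subunits, and the beta subunits carry the proteolytic sites. The regulatory particle caps it. Its base holds the Rpt ATPases, which unfold substrates, together with the scaffold subunits Rpn1 and Rpn2 and the ubiquitin receptors Rpn10 and Rpn13. Its lid holds the remaining Rpn subunits, among them the deubiquitinase Rpn11. By symbol, 25 members belonged to the core particle and 23 to the regulatory particle. A group of 16 members are copies named after another subunit gene (Prosalpha1R, Prosalpha3T, Prosalpha4T1, Prosalpha4T2, Prosalpha6T, Prosbeta2R1, Prosbeta2R2, Prosbeta4R1, Prosbeta4R2, Prosbeta5R1, Prosbeta5R2, Rpn12R, Rpn13R, Rpt3R, Rpt4R and Rpt6R), several of which are known in Drosophila for expression in the testis. They are called variants below, and the other 32 are called named subunits.

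A gene counted as having a peak if the conservative list held a summit inside the gene or at most 2 kb from either end. That list holds the peaks that passed a threshold on the irreproducible discovery rate (IDR), which measures how reproducibly a peak ranks in the replicates. Proteasome genes had a peak in 10 of 48 cases (20.8%, 95% Wilson interval 11.7 to 34.3), and 20.1% of all protein-coding genes did. The share of the members was thus close to that of the genome. All 10 were named subunits, 10 of 32, and no variant had a peak, 0 of 16. The named subunits without a peak were Prosalpha2, Prosalpha3, Prosalpha5, Prosalpha6, Prosalpha7, Prosbeta1, Prosbeta3, Prosbeta4, Prosbeta5, Prosbeta7, Rpt1, Rpt2, Rpt3, Rpt4, Rpt5, Rpn1, Rpn7, Rpn8, Rpn9, Rpn10, Rpn11 and Rpn12. Counting any overlap of the peak interval in place of the summit also gave 10 of 48 members, and 20.6% of all genes. Intervals cover counting error alone, and genes are not replicates, so none of these counts carries a test.

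The peaks belonged to 12 summits, because Prosbeta6 and Prosalpha4 each had 2. Signal values are the authors' own measure of peak height and are quoted as given. The 12 had a median signal of 74.4 and ran from 49.3 to 243, while the 1879 peaks of the list on the chromosome arms had a median of 77.3. The 1109 of these within 500 bp of a protein-coding start, where 11 of the 12 lay, had a median of 82.3. Of the 12, 6 lay above the median of the list.

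Which genes these summits belonged to was asked from the distance to transcript starts. Of the 12 summits, 3 lay within 500 bp of a start of the proteasome gene itself, at Rpn3, Rpn6 and Prosbeta2. The other 9 were nearest to the start of a neighbouring gene. With a start of the gene itself required within 500 bp, 3 of 48 members (6.25%) had a peak, and 10.7% of all protein-coding genes did. Giving a summit only to whichever gene started nearest left the same 3 members with a peak, and 11.2% of all genes. The 500 bp rule gave 4 of 48 members in the pooled list, the other list that combines both replicates (Rpn13, Rpn3, Rpn5 and Rpn6, with 12.3% of all genes). It gave 3 of 48 in the list of replicate 1 (Rpn13, Rpn3 and Rpn6, with 7.4% of all genes) and 2 of 48 in that of replicate 2 (Rpn3 and Rpn6, with 7.69% of all genes). Proteasome genes are short, with a median length of 1381.5 bp, while the median over all protein-coding genes was 2164.5 bp. The start rule does not use gene length, but it accepts any annotated start of a gene, and the number of starts differs between genes. Whether length or number of starts bears on these counts was not tested.

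The DNA in or beside these peaks is shown for 4 places, with words described below marked where they occur. Each runs 5′ to 3′ on the plus strand of dm6, outside protein-coding transcripts, and capitals mark TATCGA on either strand and likewise the words CGATAG, GGTCACAC and TGACNNNGC. The first lies between the starts of l(2)37Bb and Rpn3 (chr2L:19051613-19051789), just upstream of the Rpn3 summit. The second lies between the starts of mRpL39 and Prosbeta2 (chr3L:14999667-14999950) and holds the Prosbeta2 summit at its base 149. The third runs to the start of Hpf1 (chr3R:5791743-5791878), with the summit at base 76, and is the part of the stretch between the end of Rpn5 and Hpf1 that begins 75 bp before the summit. The last lies between the start of eIF2D and the end of Slbp (chr3R:29151795-29152073), with the summit at base 82. Marked words occur in the Prosbeta2 and Rpn2 stretches, and there are none in those of Rpn3 and Rpn5.
Rpn3: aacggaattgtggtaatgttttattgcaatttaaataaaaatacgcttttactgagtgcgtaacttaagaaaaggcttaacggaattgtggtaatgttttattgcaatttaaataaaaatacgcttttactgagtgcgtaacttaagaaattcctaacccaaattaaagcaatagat
Prosbeta2: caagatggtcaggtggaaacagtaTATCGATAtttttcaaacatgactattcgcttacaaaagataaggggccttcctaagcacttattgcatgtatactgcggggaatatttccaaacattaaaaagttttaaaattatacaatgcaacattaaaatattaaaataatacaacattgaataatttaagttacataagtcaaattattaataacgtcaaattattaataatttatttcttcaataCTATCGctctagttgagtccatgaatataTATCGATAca
Rpn5: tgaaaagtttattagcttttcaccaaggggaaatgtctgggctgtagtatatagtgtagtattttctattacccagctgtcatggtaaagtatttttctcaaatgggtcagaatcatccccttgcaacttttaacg
Rpn2: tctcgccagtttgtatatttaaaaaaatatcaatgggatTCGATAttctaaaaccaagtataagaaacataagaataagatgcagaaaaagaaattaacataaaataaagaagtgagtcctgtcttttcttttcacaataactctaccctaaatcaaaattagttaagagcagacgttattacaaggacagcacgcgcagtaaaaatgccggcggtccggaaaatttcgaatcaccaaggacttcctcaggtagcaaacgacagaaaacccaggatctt

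Rpn3, a structural subunit of the lid, had its summit 34 bp downstream of its outermost start, between the 2 annotated starts of the gene (chr2L:19051669-19051978, summit 19051824). The peak had a signal of 91.9 in the conservative list. Its overlapping entries had a signal of 53.7 in replicate 1 and 45.0 in replicate 2, and both were in the thresholded list of their replicate. The stretch upstream of it is AT-rich, with 28.8% G and C, and holds a direct repeat in which the same 72 bases begin at 19051613 and again at 19051691. The start of l(2)37Bb, on the other strand, lay 212 bp from the summit.

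Rpn6, a lid scaffold subunit, had its summit 115 bp upstream of its nearest start, between alternative starts of the gene (chr2R:14752231-14752540, summit 14752386). Its signal was 93.6, with 50.5 in replicate 1 and 44.0 in replicate 2, again thresholded in both. The start of ave, which encodes a component of Ras signalling, lay 135 bp away on the other strand. Rpn3 and Rpn6 therefore had nearly the same signal in the conservative list, and in both the value of replicate 1 was the higher one.

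Prosbeta2, which encodes a catalytic beta subunit, had its summit 136 bp upstream of the start (chr3L:14999660-14999969, summit 14999815). This was the weakest of the 12, with a signal of 49.3, 26.4 in replicate 1 and 30.8 in replicate 2. It was in the thresholded list of neither replicate, and it was absent from the pooled list. The summit lay 149 bp from the start of mRpL39, a mitochondrial ribosomal protein gene on the other strand.

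The strongest summit near a proteasome gene was at the start of its neighbour. It lay 249 bp beyond the body of Rpn5, a lid scaffold gene, and 61 bp upstream of the start of Hpf1, which encodes a cofactor of protein ADP-ribosylation (chr3R:5791756-5791889, summit 5791818). The signal was 243, above 94.7% of the list, with 127 in replicate 1 and 114.7 in replicate 2. It was 134 bp wide, whereas the other 11 were 310 bp wide, the median width of the list.

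The base genes with a peak were Rpn2, Rpn13 and Rpt6. A summit of signal 95.6 lay 1648 bp upstream of Rpn2, the largest scaffold subunit of the base, and 82 bp upstream of the start of eIF2D, a translation factor gene (chr3R:29151721-29152030). It had 59.0 in replicate 1 and 33.8 in replicate 2. One of signal 92.9 lay 1862 bp beyond Rpt6, an ATPase gene, and 229 bp upstream of a start that SLIRP1 and anox share (chrX:21319370-21319679), with 42.1 in replicate 1 and 49.6 in replicate 2. Both of these summits were thresholded in each replicate. The summit counted for Rpn13, the ubiquitin receptor gene, had a signal of 58.1 and lay 368 bp beyond the gene and 88 bp upstream of AGO1, an Argonaute gene of the microRNA pathway (chr2R:13958022-13958331). Its entries of 29.7 in replicate 1 and 28.7 in replicate 2 were in neither thresholded list.

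Among the core particle genes, the remaining peaks were all nearest to neighbours as well. Prosbeta6, a beta subunit gene without a proteolytic site, had a summit of signal 83.2 at the start of CG4101, 1971 bp from its own start (chr3L:16612234-16612543), with 31.8 in replicate 1 and 52.1 in replicate 2. Its other summit, of signal 59.2, lay 69 bp inside CG4098 (chr3L:16609123-16609432), with 26.6 in replicate 1 and 33.3 in replicate 2. Both summits of Prosbeta6 were higher in replicate 2 and were thresholded in that replicate alone.

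Prosalpha4, an alpha ring gene, had 2 summits inside eas, an ethanolamine kinase gene that follows it on the X. They had signals of 65.6 (chrX:16279355-16279664) and 59.6 (chrX:16278814-16279123) and lay 1923 and 1382 bp beyond Prosalpha4. The stronger had 23.2 in replicate 1 and 40.9 in replicate 2, and the weaker had 27.2 in replicate 1 and 30.6 in replicate 2. The summit counted for Prosalpha1, another alpha ring gene, lay 1895 bp beyond the gene and 113 bp upstream of a start of phr, a photolyase gene (chr2R:7825253-7825562), with a signal of 61.6. It had 32.7 in replicate 1 and 31.2 in replicate 2, and neither entry was in a thresholded list.

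**Figure D1:**
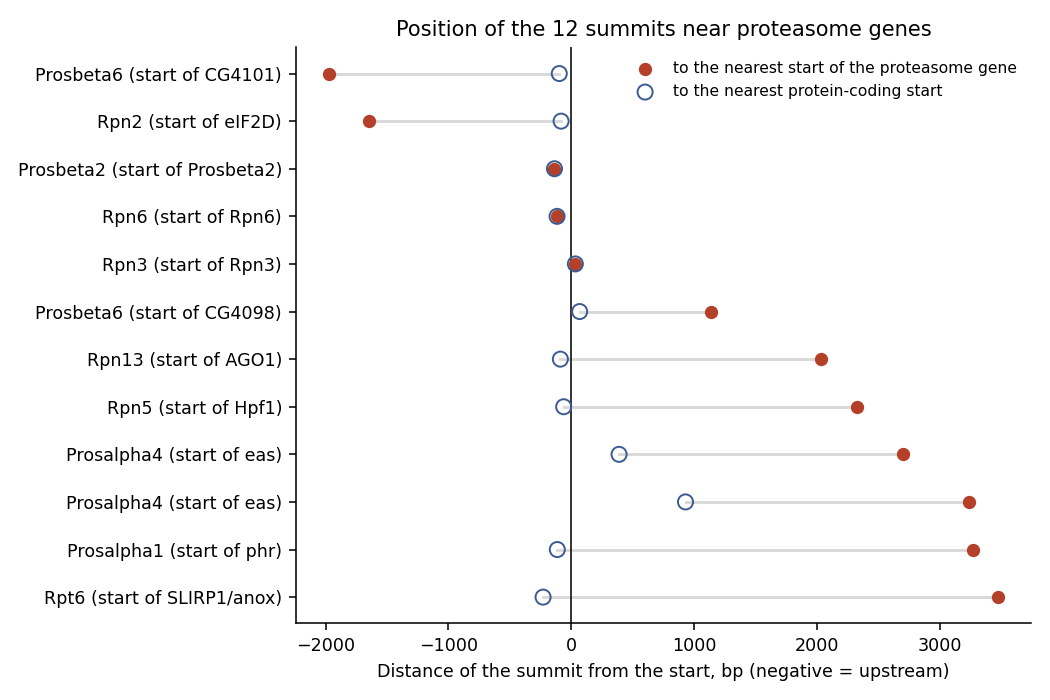
Distance in bp of each of the 12 summits from the nearest start of the proteasome gene (filled) and from the nearest protein-coding start (open), negative values being upstream; each line is 1 summit, named by the proteasome gene and, in brackets, the gene with the nearest start. The symbols coincide at Rpn3, Rpn6 and Prosbeta2, and elsewhere the filled symbols lie 1140 to 3473 bp from the proteasome gene's own start.

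Most of the 12 summits thus lay near a start, whichever gene this belonged to. The median distance was 105 bp to the nearest protein-coding start and 2001 bp to the nearest start of the proteasome gene, without regard to sign. Of the 12, 11 lay within 500 bp of a protein-coding start, against 1109 of the 1879 peaks of the list, and 8 lay upstream of the nearest start. The exception, in a 5′ UTR of eas, was 931 bp from the nearest start. The 12 were picked for lying in a gene or within 2 kb of one, and the 1879 were not. Their shares near a start therefore cannot be compared as a trait of proteasome genes. From 50 bp before to 50 bp after each of the 12 summits, the bases had a median of 31.7% G and C and ranged from 20.8% to 56.4%, and over all conservative summits the median was 32.7%.

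The limit of 2 kb decided a few of these counts. Each member is placed here by the summit nearest to it, and the second summits of Prosbeta6 and Prosalpha4 lay at 1971 and 1923 bp. Just inside it were Prosalpha1, at 1895 bp with signal 61.6, and Rpt6, at 1862 bp with signal 92.9. Just outside it were Prosalpha3, at 2250 bp with signal 67.2, and Prosbeta5, at 2256 bp with signal 61.3. With a margin of 1 kb, 6 members had a peak and 16.4% of all genes did. With a margin of 5 kb the count was 16 of 48, all of them named subunits, and 29.3% of all genes had one.

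Replicates were compared through the entries that overlap each summit. All 12 summits had an entry in the ranked list of both replicates, where ranked entries are kept whether or not they pass the IDR threshold. On the log2 scale, replicate 1 minus replicate 2 was -0.06 at the median of the 12 (SD 0.44), and over the 1858 conservative peaks with entries in both lists the SD was 0.51. Of the 12, 6 were higher in replicate 1 and 6 in replicate 2. This difference was widest at Rpn2, with 0.81, and at the stronger summit of Prosalpha4, with -0.82. A thresholded peak of both replicates was found at 5 of the 12, those counted for Rpn2, Rpn3, Rpn5, Rpn6 and Rpt6. A further 3 had one in replicate 2 alone and 4 had one in neither. Over the whole list, 41.1% of peaks were thresholded in both replicates.

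**Figure D2:**
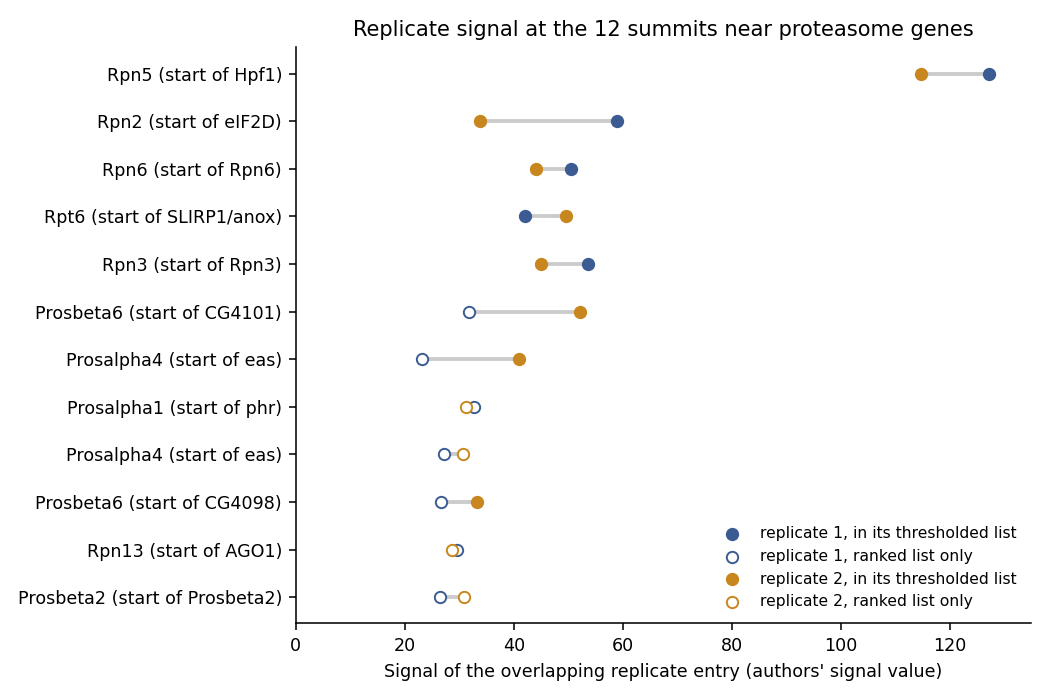
Signal of the replicate entry that overlaps each of the 12 summits, in the authors' units, for replicate 1 and replicate 2; filled symbols are in the thresholded list of that replicate and open ones only in its ranked list, and the gene in brackets has the nearest start. The 5 summits thresholded in both replicates are counted for regulatory particle genes, and the summit at the start of Hpf1 stands above the rest at 127 and 114.7.

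Core and regulatory particle were then set side by side. Regulatory particle genes had a peak in 6 of 23 cases (26.1%) and core particle genes in 4 of 25 (16.0%), with 20.1% over all protein-coding genes. By subcomplex, the lid had 3 of 9, the base 3 of 14, the beta ring 2 of 13 and the alpha ring 2 of 12. Among named subunits the counts were 6 of 18 for the regulatory particle and 4 of 14 for the core particle. With peaks required to be thresholded in both replicates, a rule added after the data were seen, the regulatory particle had 5 of 23 (21.7%) and the core particle 0 of 25, and 9.82% of all genes had such a peak. With a start of the gene itself required within 500 bp, the regulatory particle had 2 of 23 (8.70%) and the core particle 1 of 25 in the conservative list (10.7% of all genes), 4 and 0 in the pooled list (12.3%), 3 and 0 in the list of replicate 1 (7.4%), and 2 and 0 in that of replicate 2 (7.69%). With 2 kb again, in the list of replicate 1 alone the regulatory particle had 6 and the core particle 0 (14.3% of all genes), and in that of replicate 2 alone they had 5 and 2 (14.4%). With 5 kb in the conservative list, they had 9 of 23 and 7 of 25 (29.3% of all genes). Among named subunits, 5 kb gave 9 of 18 and 7 of 14, which is 50% in each particle. For named subunits the 500 bp rule gave 2 of 18 (11.1%) and 1 of 14 (7.14%) in the conservative list. The difference between the particles was not tested, and of the 5 regulatory particle genes with a peak in both replicates, 2 had it at their own start.

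**Figure D3:**
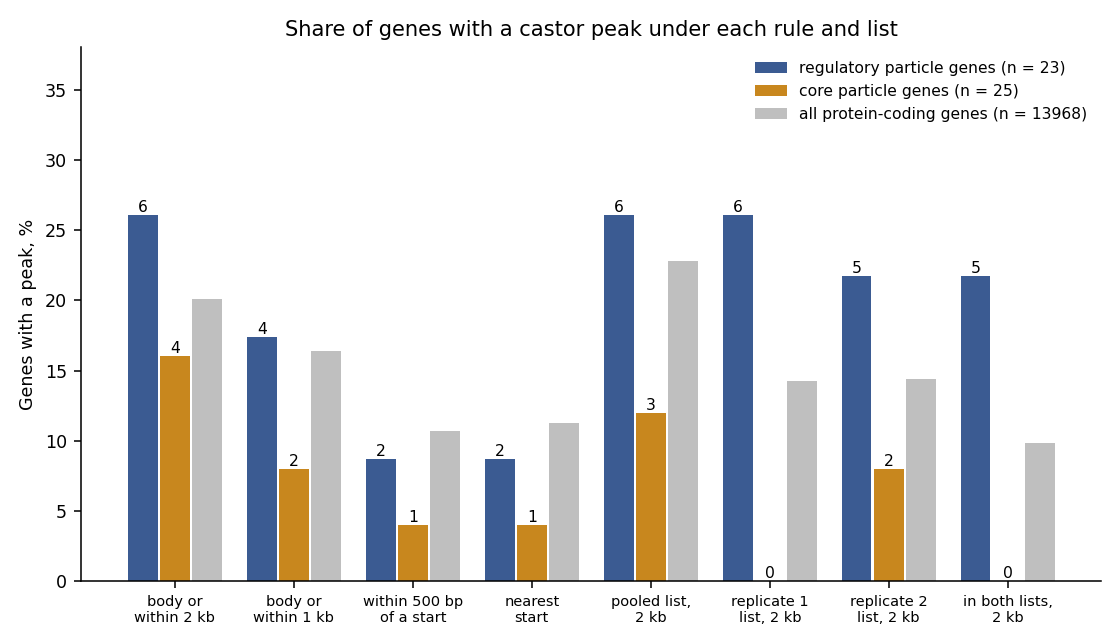
Share of genes with a peak, in %, for regulatory particle genes, core particle genes and all protein-coding genes, under 4 rules for assigning summits and 4 other peak sets; numbers on the bars are gene counts, and 2 kb means in the body or within 2 kb. The regulatory particle bar stands above the core particle bar under each rule and list drawn. Both particle bars lie below the bar of all genes in the 2 start rules drawn, which use the conservative list. Variants, none of which had a peak, are counted in the bars of both particles, and the margin of 5 kb is not drawn.

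Most members had a ranked entry at their start, as did most protein-coding genes. The strongest entry of the conservative ranked list within 500 bp of any start was taken for each gene, a measure chosen after the data were seen. That list holds 104609 entries on the chromosome arms, with a median signal of 16.6, so an entry by itself does not show occupancy. An entry was found for 40 of 48 proteasome genes (83.3%) and for 76.2% of all protein-coding genes. The median signal of genes with an entry was 28.1 for proteasome genes and 25.9 for all protein-coding genes. In the replicates' own ranked lists the medians were 16.9 for proteasome genes and 16.1 for all genes in replicate 1, and 17.2 for proteasome genes and 15.2 for all genes in replicate 2. Within 200 bp of a start, 28 of 48 members (58.3%) and 53.7% of all genes had an entry in the conservative ranked list. The medians in that list lay further apart there, at 33.2 for proteasome genes and 25.3 for all genes. In the replicates' own ranked lists they were 16.9 and 16.5 in replicate 1, and 18.2 and 15.2 in replicate 2. Within 1000 bp the medians in the conservative ranked list were 29.5 for proteasome genes and 27.9 for all genes.

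In the lid, all 8 named subunits had an entry, with a median of 40.02. After Rpn6 and Rpn3 came Rpn5, with 54.0 (22.5 in replicate 1 and 24.0 in replicate 2), and Rpn9, with 46.1 (34.2 in replicate 1 and 12.4 in replicate 2). The -log10 IDR, which has to reach 2 for the thresholded list, was 1.76 at Rpn5 and 0.17 at Rpn9. Rpn8, Rpn12 and the deubiquitinase gene Rpn11 lay between 30.4 and 33.9, and Rpn7 had the lowest value of the lid, 15.1. The start of Rpn5 passed in the pooled list, where its summit lay 258 bp upstream of Rpn5 and 149 bp inside Hat1, a histone acetyltransferase gene on the other strand.

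The 10 named subunits of the base had a median of 34.9. Rpn13 led with 47.6, and its replicates were uneven, with 35.7 in replicate 1 and 15.6 in replicate 2. This start passed in the list of replicate 1 and in the pooled list, where the summit lay 22 bp upstream of a start of Rpn13, but not in the conservative list, where its -log10 IDR was 0.73. The other ubiquitin receptor gene of the base, Rpn10, had 41.9 (20.7 in replicate 1 and 24.2 in replicate 2) and a -log10 IDR of 1.61. Rpn1, a scaffold gene, had 40.8 and 1.03. Among the ATPase genes the values ran from 17.1 at Rpt3 to 36.1 at Rpt4, and none of the 6 reached a -log10 IDR of 0.5.

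The starts of the core particle had lower values in the conservative list. The 7 named subunits of the beta ring had a median of 25.9, led by Prosbeta2 and then by Prosbeta5, with 35.3 (14.5 in replicate 1 and 21.8 in replicate 2), and Prosbeta3, with 29.0 (7.37 in replicate 1 and 25.3 in replicate 2). Prosbeta5 and Prosbeta1 encode the other catalytic subunits, and Prosbeta1 had 23.8. Prosbeta7 was lowest with 8.77. In the alpha ring, 5 of 7 named subunits had an entry, with a median of 24.5, from 13.1 at Prosalpha5 to 37.3 at Prosalpha7. Prosalpha1 and Prosalpha6 had none within 500 bp of a start in the conservative or in either replicate list. The medians of named subunits were 34.9 for the regulatory particle and 25.01 for the core particle in the conservative list, 20.7 and 15.8 in replicate 1, and 16.4 and 18.2 in replicate 2. Among genes with an entry, the replicates thus gave opposite orders of the particles. In replicate 2 these were 14 of 18 named subunits of the regulatory particle and 8 of 14 of the core particle. With genes lacking an entry counted as 0, the replicate 2 medians were 15.3 for the regulatory particle and 11.7 for the core particle. Among genes with an entry in replicate 2, the regulatory particle was higher within 200 bp and the core particle within 1000 bp.

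Variants stood lower. An entry was found at 10 of 16 variant starts (62.5%), with a median of 20.4, and at 30 of 32 named subunit starts (93.8%), with a median of 32.1. The highest of the variants was Prosalpha6T with 35.0, and none reached a -log10 IDR of 1. The order of the medians was the same in both replicates, with 11.0 for variants and 17.5 for named subunits in replicate 1, and 15.5 for variants and 17.2 for named subunits in replicate 2.

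**Figure D4:**
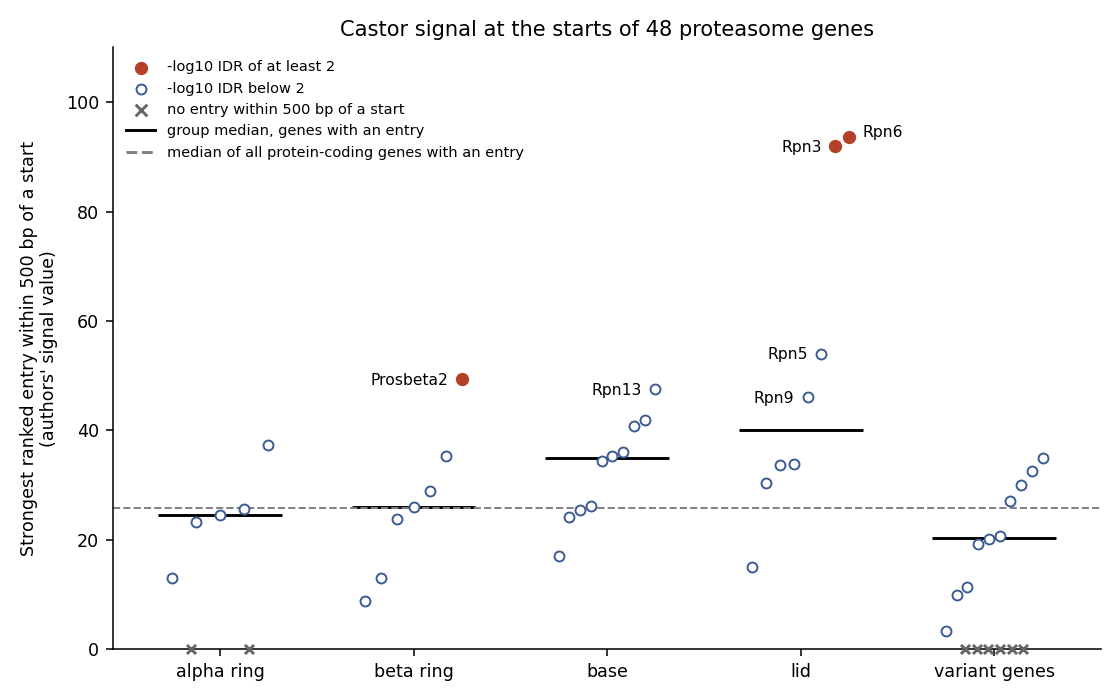
Signal, in the authors' units, of the strongest entry of the conservative ranked list within 500 bp of a start of each of the 48 genes, by subcomplex for named subunits and together for variants; crosses are genes with no entry and are drawn at 0, black lines are medians of genes with an entry, and the dashed line is the median of all protein-coding genes with an entry (25.9). Filled symbols, at Rpn3, Rpn6 and Prosbeta2, have a -log10 IDR of at least 2, and the lid median is the highest at 40.02. In the ranked lists of the replicates, not drawn, the lid median was 28.3 in replicate 1 and the beta ring median 14.8. In replicate 2 the lid had 19.8, at 8 of 8 named subunits, and the beta ring 21.8, at 5 of 7.

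Replicate values at these starts were then set side by side. Over the 25 members with an entry in both ranked lists, Spearman's rho between the replicates was 0.14, and over the 7074 protein-coding genes with both it was 0.59. These values are a description across genes of the same 2 libraries. An entry was in replicate 1 alone at 7 members, in replicate 2 alone at 5 and in neither at 11.

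Many proteasome genes have a start close to that of a gene on the other strand, an arrangement examined after the peaks had been seen. A head-to-head partner, that is a start of another protein-coding gene on the other strand within 1000 bp upstream, was present at 26 of 48 members (54.2%) and at 36.2% of all protein-coding genes. It was present at 22 of 32 named subunits and at 4 of 16 variants. The 3 members with a peak at their own start all had such a partner, 178 bp away for Rpn3, 250 bp for Rpn6 and 285 bp for Prosbeta2, so that the peak cannot be given to one gene of the pair. Of the members with a partner, 3 of 26 (11.5%) had a peak at a start, and of all protein-coding genes with one 19.8% did. Members without a partner had 0 of 22, and all such genes 5.52%.

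Words of known promoter elements were counted in the 300 bp from 250 bp before to 50 bp after the outermost start of each gene, on both strands. The word TATCGATA, the DNA replication-related element of many Drosophila housekeeping promoters, was present at 12 of 48 members (25%) and at 9.36% of all protein-coding genes. All 12 were named subunits, Prosalpha3, Prosalpha5, Prosalpha6, Prosbeta1, Prosbeta2, Prosbeta6, Rpn3, Rpn7, Rpn9, Rpn12, Rpn13 and Rpt5. Its core TATCGA, which every TATCGATA contains, was present at 24 members (50%) and at 27.7% of all genes, and CGATAG, which overlaps it, at 14 (29.2%) and 19.5%. The core word GGTCACAC of another housekeeping element, promoter motif 1, was present at 5 members (10.4%) and at 7.69% of all genes. TGACNNNGC, the antioxidant response element to which cap-n-collar binds with a small Maf partner, was present at 6 members (12.5%) and at 8.62% of all genes. TATAAA was present at 18 members (37.5%) and at 45.8% of all genes. The other A and T words were ATTTTA, at 35 members (72.9%) and 50.6% of all genes, and TTAAAA, at 33 (68.75%) and 53.4%.

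The word was then set beside the peaks at starts. Of the 12 members with TATCGATA, 2 had a peak at their own start, Rpn3 and Prosbeta2 (16.7%), and of the 36 without it 1 did, Rpn6 (2.78%). Over all protein-coding genes the shares were 18.1% of the 1307 with the word and 9.90% of the 12661 without it. The copy counted for Rpn3 began 197 bp upstream of its outermost start, inside l(2)37Bb and outside the peak. Another copy, outside the promoter window, lay in the peak 46 bp downstream of the summit. In the Prosbeta2 peak the word was present on both sides of the summit, 120 bp upstream and 130 bp downstream, and both copies are in capitals in the stretch shown above. The promoter window of Prosbeta2 held the downstream copy alone. At Rpn6 the core word occurred 4 times in the peak, the nearest 45 bp from the summit. The promoter window of Rpn6 lies around its outermost start, 524 bp from the summit, and does not reach the peak.

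Within 50 bp of the 12 summits, the A and T words found over the whole list were also the commonest. TTAAAA was present at 6 of 12 (50%) and at 33.3% of all conservative summits, and ATTTTA at 5 (41.7%) and 31.5%. TATCGA was present at 3 of 12, at the summits counted for Rpn2, Rpn3 and Rpn6, and at 9.53% of all conservative summits. CGATAG, GGTCACAC and TGACNNNGC were present at none of the 12. A match to a word is a description of these bases and does not show binding.

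Genes that act with the proteasome were taken from a separate list of 28 symbols, of which 25 matched the annotation (PA28gamma, Ufd1-like and Ecm29 did not). They had a peak in 5 of 25 cases (20%), with 20.1% over all protein-coding genes. The transcription factor gene cnc (cap-n-collar), whose Nrf relatives in mammals activate proteasome genes, had a promoter peak of signal 74.9 (chr3R:23189962-23190271), 302 bp downstream of a start. Pomp, which encodes an assembly factor of the core particle, had one of 72.9, 248 bp upstream of its start (chr2L:20787253-20787562). RpS27A, which encodes ubiquitin fused to a ribosomal protein, had one of 61.5, 25 bp upstream of a start (chr2L:10408172-10408481), at the same distance from a start of Ip259. REG, which encodes another activator of the core particle, had one of 62.2 in its 3′ UTR (chrX:13214049-13214358). The summit counted for ntc, which encodes an F-box protein that acts on the proteasome in sperm differentiation, had a signal of 77.4, lay in an intron and was nearest to the start of CG32264 (chr3L:3802734-3803043). None of these 5 genes had a peak that was thresholded in both replicates.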

How the data were processed

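Peak lists on assembly dm6 were used, per the deposited README texts. Each of the 2 replicates has its own thresholded and ranked peaks, and both replicates together gave a conservative set, used as the main one, and a second set, called pooled. All 1880 conservative peaks are entries of the ranked list taken as conservative. The deposited signal is a peak height set by the authors, and it was not scaled between lists. The deposited -log10 values of the ranked lists are the authors' IDR values. Aligner and peak caller were not given in the sources used here. Read totals are not in the lists, so depth is unknown.

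No peak ended beyond the arm lengths of the RefSeq sequence used, and genes came from Ensembl release 115. Distances were taken to protein-coding transcript starts, and overlap meant at least 1 bp. Where several replicate entries overlapped a peak, the strongest was used. Members and lists were chosen with earlier results of these data known, and no test was made, because the study has 1 group. Named genes were all members with a peak, members without one by name, genes with the nearest start, members next to the 2 kb limit, and pathway genes with a peak; values at other starts were chosen after they were seen. The gene assignment and the word search were tested on simulated data. Alternatives were the pooled list, each replicate list, the upper 50% of peaks by signal, other gene rules and other windows. Python 3.11.15, numpy 2.4.6, pandas 2.3.3 and statsmodels 0.14.6 were used.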

Additional observations from a re-analysis of the deposited data

How the results depend on the processing

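The count of proteasome genes with a peak stayed within 1.5 times its main value in the pooled list, with any overlap of the peak interval and with replicate 1 left out. In the pooled list the count was 9 of 48 (18.75%), and 22.8% of all protein-coding genes had a peak. It ran from 6 to 7 when a replicate was left out, and was 6 in the upper 50% of peaks by signal, 3 with the nearest start, 3 within 500 bp of a start, 6 with a margin of 1 kb, 16 with a margin of 5 kb and 5 with peaks thresholded in both replicates; named subunits gave the same counts, and variants gave 0 throughout. The shares of all protein-coding genes were, in the same order, 14.3% to 14.4%, 11.9% (12.5% of members), 11.2%, 10.7%, 16.4%, 29.3% and 9.82%, and they apply to each count that follows. In the same order, core particle genes gave 0 to 2, then 1, 1, 1, 2, 7 and 0. Regulatory particle genes gave 5 to 6 when a replicate was left out, 2 with the nearest start and 2 within 500 bp of a start. Pathway genes gave 0 to 1 when a replicate was left out, 1 in the upper 50%, 3 within 500 bp of a start and 0 with peaks thresholded in both. The median signal of the summits was 65.6 in the pooled list (list median 70.9), 44.5 to 52.1 when a replicate was left out (list medians 52.1 and 50.5), 91.9 with the nearest start or within 500 bp of a start, and 67.2 with a margin of 5 kb. The median distance to the gene's own start ran from 876.5 to 1806.5 bp when a replicate was left out. Within 25 bp of the summit, TATCGATA and TATCGA were at 0% of the summits and TTAAAA at 25%, against 1.49%, 5.11% and 19.3% of all conservative summits, and within 100 bp TTAAAA was at 75%, against 49.02% of all. The median signal at member starts was 33.2 within 200 bp (25.3 for all genes) and 29.5 within 1000 bp (27.9 for all genes). The causes were not tested. No paired analysis was possible because there is 1 group. With 12 summits, single peaks decide most of these values, and the unknown depth limits what can be said of starts without a peak.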
